A study of Mus musculus with 4 samples.

Results

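The genes described here are 10 cytosolic heat shock genes, chosen by symbol: Hsp90aa1, Hsp90ab1, Hspa8, Hspa1a, Hspa1b, Hsph1, Dnajb1, Bag3, Hspb1 and Hspb8. They are 10 of the 24411 genes listed for each library, and all 10 passed the filter on low counts that left 13585 genes for testing. Their RNA was measured in mouse morulae of the outbred ICR strain, made by in vitro fertilization and grown in KSOM with added bovine serum albumin. Zygotes received electroporated siRNA at 3 hours post insemination (the labels' hpi), of a control sequence (siControl, 2 libraries) or of a sequence against Pwp1 (siPwp1, 2 libraries), and morulae were taken at 72 hpi. Both groups thus went through fertilization in vitro, electroporation and culture, and no untreated or in vivo embryo is part of the comparison. Each library was made from polyadenylated RNA of 10 pooled morulae with a SMART-Seq v4 kit, so a library gives no value for single embryos. The labels call the experiment duplicated and do not say whether the duplicates came from separate cultures. The p-values below therefore measure the spread between these 4 libraries, which may be technical.

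Heat shock proteins are molecular chaperones that bind unfolded stretches of other proteins and help them fold, stay soluble or reach degradation. The HSP70 proteins bind clients in an ATP cycle that J-domain proteins start and exchange factors reset, and HSP90 takes over clients close to their final fold. Some members of the family, such as Hspa8 and Hsp90ab1, are made in nearly all cells at all times, while others are switched on by heat shock factor 1 (Hsf1) when unfolded protein accumulates. The early mouse embryo is known to transcribe its HSP70 genes when its genome is first activated, and oocytes hold large amounts of HSP90.

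Libraries held 28981358 to 48765229 expected counts, and 15142 to 15973 genes had a count above 0. Pwp1, the siRNA's target, measured 215.4 and 364.9 CPM (counts scaled to a library of 1000000) with siControl and 36.9 and 37.2 CPM with siPwp1. Its log2 fold change was -2.97 (SE 0.333), with edgeR's adjusted p = 0.22 and DESeq2's adjusted p = 1.47e-12. All 10 morula and early blastocyst genes passed the filter on low counts, at uneven levels. Pou5f1 stood at 53.5 to 81.07 TPM, the share of transcripts after scaling for length. Sox2 was at 3.66 and 0.1 TPM in siControl and at 0.34 and 0.11 TPM in siPwp1. Cdx2 was at 8.04 and 1.21 TPM in siControl and at 3.1 and 0.5 TPM in siPwp1. The summed level of those 10 genes was 18496 and 15056 TPM with siControl and 14558 and 12757 TPM with siPwp1, lower in both siPwp1 libraries. Nearly all of that sum was Dppa5a, and of the 10 genes Dppa5a, Pou5f1 and Nanog were lower without overlap of the groups while the other 7 overlapped. Of 8 cumulus and granulosa genes, Cyp19a1 and Ptx3 were at 0 in all libraries. The summed list stood at 3.22 and 6.61 TPM in siControl and at 6.98 and 11.88 TPM in siPwp1. Amhr2 made up nearly all of it, and Fshr, Foxl2, Inha, Amh and Has2 were at 0.11 TPM or less. Of 6 blood and immune genes Hbb-bs was at 0 in all libraries and Ptprc at 0.07 TPM or less, while the sum, mostly Hba-a2, was 38.6 and 117.01 TPM in siControl and 145.5 and 154.2 TPM in siPwp1. The 6 sperm genes summed to 2.97 and 0 TPM in siControl and to 3.14 and 0.91 TPM in siPwp1, with Akap4 at 0 throughout. The 5 fibroblast genes summed to 0.06 and 0.03 TPM in siControl and to 0.12 and 0.15 TPM in siPwp1, with Col3a1, Dcn and Lum at 0, and the 7 oocyte genes to 5.68 and 16.78 TPM in siControl and 8.39 and 23.3 TPM in siPwp1. The part of these lists in the results below was not tested.

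Per unit of length, 3 genes made up nearly all of the heat shock RNA of the morula. Hsp90aa1, Hsp90ab1 and Hspa8 together held 97.5% to 98.6% of the summed TPM of the 10 genes, and the 10 genes together held 0.837% to 1.18% of all TPM in a library. Hsp90aa1 led by its mean over the 4 libraries, 4296 TPM, followed by Hspa8 at 3892 TPM and Hsp90ab1 at 1354 TPM. The order of the first pair was not stable: Hsp90aa1 was above Hspa8 in 2 of the 4 libraries, replicate 1 of each group. Next came Hspb1 at 65.7 TPM, Dnajb1 at 53.6 TPM and Hsph1 at 40.4 TPM, with ranges that overlapped from one gene to the next: Hspb1 was above Dnajb1, and Dnajb1 above Hsph1, in 3 of 4 libraries each. Bag3 (15 TPM) was above Hspb8 (8.16 TPM) in all 4 libraries, although their ranges overlapped. The inducible HSP70 genes were lowest, at 2.08 TPM for Hspa1b and 0.395 TPM for Hspa1a.

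**Figure D1:**
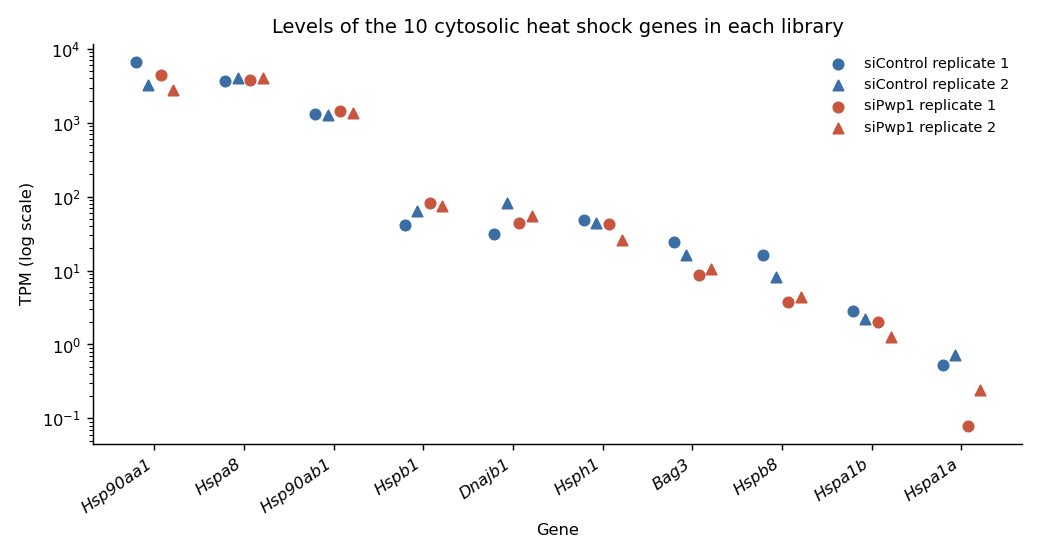
TPM of the 10 heat shock genes (log axis) in the 2 siControl libraries (blue) and the 2 siPwp1 libraries (red), with circles for replicate 1 and triangles for replicate 2, ordered by mean TPM. Hsp90aa1, Hspa8 and Hsp90ab1 lie above 1284 TPM in every library, and every other gene lies at 83.4 TPM or less.

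In CPM, Hspa8 and Hsp90ab1 lay within 1.03-fold and 1.19-fold over all 4 libraries. On this scale 4 of the 10 genes were lower in both siPwp1 libraries than in both siControl libraries, and 1 was higher in both. The 4 lower genes were Hspa1a, Hspa1b, Bag3 and Hspb8, and the higher gene was Hspb1. Over all genes tested, 14.1% were lower without overlap of the groups and 14.7% were higher, 28.7% in either direction. In CPM the replicate numbers separated the libraries, without regard to siRNA, for the other 5 of the 10 genes (Hsp90aa1, Hsp90ab1, Hspa8, Hsph1 and Dnajb1), beside 50.5% of all genes. In TPM the siRNA groups, not the replicate numbers, separated Hsph1 (lower in siPwp1) and Hsp90ab1 (higher). With edgeR's quasi-likelihood test, 0 of the 10 genes passed an adjusted p of 0.05, as did 0% of all genes. At an unadjusted p under 0.05 there were 2 of the 10, Bag3 and Hspb8, both lower, against 2.66% of all genes in either direction and 0.824% on the lower side. With the replicate number added to that fit, Hsp90aa1, Hsph1 and Hspb1 also had an unadjusted p under 0.05. The share of all genes was not counted for that fit. DESeq2 called 0 of the 10 as well, against 0.324% of all genes in either direction. The median log2 fold change of the 10 genes was -0.45, beside -0.0010 for all genes tested, with 7 genes fitted lower and 3 fitted higher. With siPwp1 replicate 1 left out the median was -0.87, and leaving out siControl replicate 2 or siPwp1 replicate 2 gave -0.71 or -0.23. In pooled embryos, fewer cells of a type and less RNA per cell cannot be told apart.

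**Figure D2:**
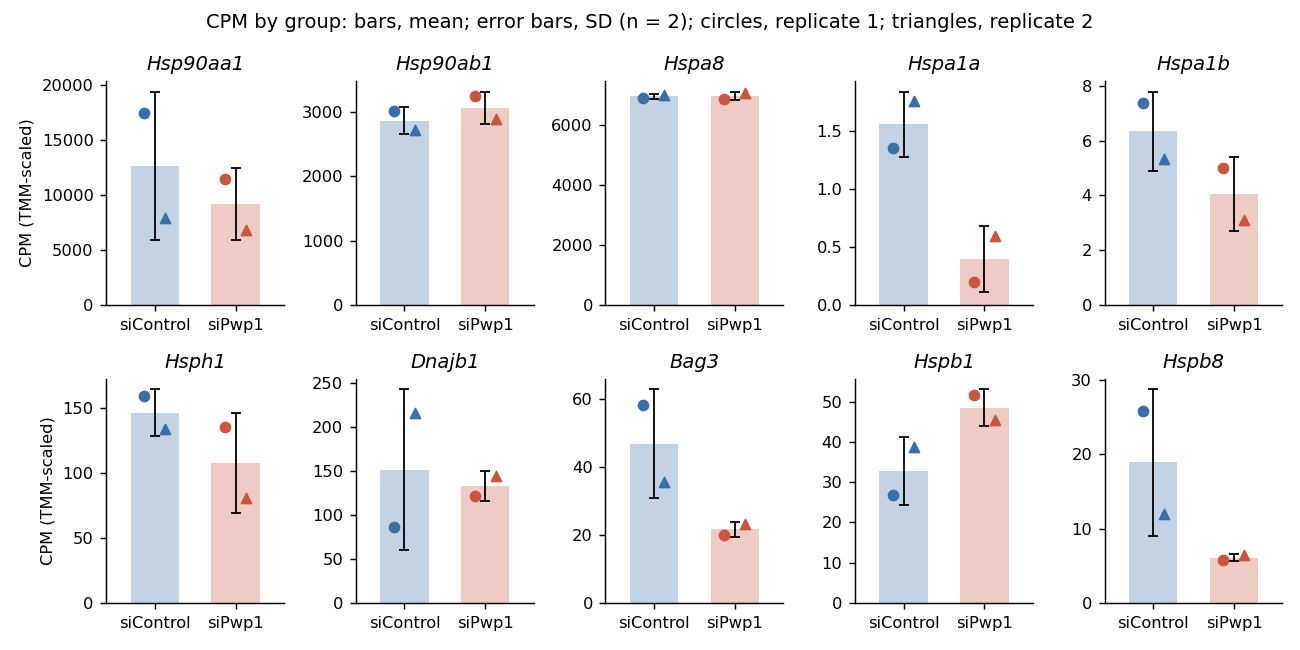
CPM of each heat shock gene by group, on axes that start at 0, with bars for the mean, error bars for the SD (n = 2), circles for replicate 1 and triangles for replicate 2. Both siPwp1 points lie below both siControl points for Hspa1a, Hspa1b, Bag3 and Hspb8 and above them for Hspb1, and the Hspa8 bars stand at 6967 and 6980 CPM.

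The HSP90 pair consists of Hsp90aa1, whose protein is the stress-inducible HSP90 alpha, and Hsp90ab1, whose protein is the constitutive HSP90 beta. Hsp90aa1 measured 17459 and 7940 CPM in replicates 1 and 2 of siControl, against 11494 and 6882 CPM in replicates 1 and 2 of siPwp1. The values of every gene below are given in this order. Replicate 1 was the higher library in both groups, 2.2-fold in siControl and 1.67-fold in siPwp1, and the groups overlapped. The group means were 12699 ± 6731 and 9188 ± 3262 CPM (SD, n = 2). The log2 fold change was -0.47 (SE 0.409), with a 95% interval of -1.44 to 0.50 and edgeR's adjusted p = 0.9998. It turned to 0.21 without siControl replicate 1, so the direction of the fit on group alone rested on that library. With the replicate number added to the fit it was -0.40 (edgeR's adjusted p = 0.309). The keratin gene Krt18, an early trophectoderm marker, was also higher in replicate 1. It stood at 182.4 and 14.41 TPM in siControl and at 144.7 and 23.8 TPM in siPwp1. In TPM, Krt8, Cdx2 and Gata3 were likewise higher in replicate 1 of both groups. Tead4 and Tfap2c were higher in replicate 2 of both, Tead4 at 12.32 and 18.9 TPM in siControl and at 12.15 and 14.12 TPM in siPwp1. The part of these genes in the Hsp90aa1 difference was not tested.

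Hsp90ab1 measured 3012 and 2717 CPM with siControl and 3238 and 2884 CPM with siPwp1. In CPM all 4 libraries lay within 1.19-fold of each other and the groups overlapped. In TPM both siPwp1 libraries were higher, at 1319 and 1284 with siControl and 1461 and 1352 with siPwp1. The log2 fold change was 0.10 (95% interval -0.40 to 0.59). The ratio of Hsp90aa1 to Hsp90ab1 in TPM was 5.03 and 2.53 in siControl and 3.08 and 2.07 in siPwp1. The shift between the 2 HSP90 genes therefore went with the replicate number in both groups, and the siControl and siPwp1 ratios overlapped. Hsp90aa1 lies on chromosome 12 at 110690605 to 110702728 on the minus strand, and Hsp90ab1 on chromosome 17 at 45567775 to 45573271 on the minus strand (GRCm38). Both are protein-coding, and neither overlaps another annotated gene.

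Hspa8 encodes HSC70, the constitutive HSP70 of the cytosol, which also serves in clathrin uncoating and in autophagy. It measured 6913 and 7020 CPM with siControl and 6883 and 7077 CPM with siPwp1. The 4 libraries lay within 1.03-fold of each other. Ranked by the ratio of the highest to the lowest library, Hspa8 was the 3rd least variable of 13585 genes, where the median ratio was 1.98. Among the 148 genes with a mean of at least 1000 CPM it ranked 1st, while Hsp90ab1 ranked 27th and Hsp90aa1 145th. Its log2 fold change was 0.0028 (SE 0.190), with a 95% interval of -0.45 to 0.45. The gene lies on chromosome 9 at 40800984 to 40810087 on the plus strand, and 3 small nucleolar RNA genes of the Snord14 family lie inside it on the same strand.

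Hspa1a and Hspa1b encode the inducible HSP70 protein and are single-exon neighbours on chromosome 17, minus strand, at 34969190 to 34972156 and at 34956436 to 34959238. Their coding sequences are 99.4% identical (1915 identical bases in a global alignment of 1923 and 1926 bases), so reads cannot always be assigned to either copy, and the values of each are uncertain. The stretches before their start sites are alike as well, with 149 of 150 bases identical. They are shown because both copies carry the same heat shock element there. Capitals mark GAANNTTC, a pair of inverted repeats of the unit bound by heat shock factors, whose first base lies 104 bases before either start. The sequences are from RefSeq on GRCm38.p6, 5′ to 3′ on the minus strand, and end at the base before the start site.
Hspa1a, chr17:34972157-34972306: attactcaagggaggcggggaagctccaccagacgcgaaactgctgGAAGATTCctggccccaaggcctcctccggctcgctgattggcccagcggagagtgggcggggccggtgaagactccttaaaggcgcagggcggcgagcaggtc
Hspa1b, chr17:34959239-34959388: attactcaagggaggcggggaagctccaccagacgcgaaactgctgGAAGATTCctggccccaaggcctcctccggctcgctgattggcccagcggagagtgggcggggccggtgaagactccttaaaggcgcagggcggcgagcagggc

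Both copies were lower in siPwp1, at levels near the bottom of the family. Hspa1b measured 7.36 and 5.32 CPM with siControl and 5.01 and 3.09 CPM with siPwp1. Hspa1a measured 1.35 and 1.75 CPM with siControl and 0.198 and 0.598 CPM with siPwp1, from expected counts of 39.3, 76.6, 10.21 and 17.7 in that order. In these libraries 3 counts are worth 0.0594 to 0.104 CPM. The groups did not overlap for either copy, but the gap for Hspa1b, between 5.32 and 5.01 CPM, was smaller than its spread within either group. The log2 fold changes were -1.98 (SE 1.0) for Hspa1a and -0.64 (SE 0.492) for Hspa1b, with 95% intervals of -4.36 to 0.41 and -1.81 to 0.53. Both values depended on the siPwp1 libraries: Hspa1a was at -1.37 without siPwp1 replicate 1 and at -2.95 without siPwp1 replicate 2, and Hspa1b at -1.04 and -0.33.

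Because the copies share reads, their sum is the firmer quantity. The summed level was 8.71 and 7.08 CPM with siControl and 5.21 and 3.69 CPM with siPwp1, or 7.89 ± 1.16 and 4.45 ± 1.07 CPM (SD, n = 2). The groups did not overlap, and the sum was 1.78-fold lower in siPwp1. Fitted as 1 gene, a test chosen after the data were seen, the pair had a log2 fold change of -0.83 (SE 0.443) and edgeR's adjusted p = 0.9998. The share of the pair's counts assigned to Hspa1a varied between libraries, at 15.6% and 24.6% in siControl and at 3.88% and 15.9% in siPwp1. Hspa8 exceeded the summed pair by 1095-fold and 1371-fold in siControl and by 1829-fold and 2663-fold in siPwp1, on the TPM scale. The antisense gene Gm20481 overlaps Hspa1a on the other strand, and the strand setting of the counting is not given in the sources used here.

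Of the genes for HSP70 partners, Dnajb1 and Hsph1 overlapped between the groups in CPM, and Dnajb1 did so in TPM as well. Dnajb1 encodes HSP40, a J-domain protein that stimulates the HSP70 ATPase, and lies on chromosome 8 at 83608193 to 83612653 on the plus strand. It measured 86.7 and 216.3 CPM with siControl and 121.3 and 144.97 CPM with siPwp1. The siControl replicates differed 2.49-fold and enclosed both siPwp1 libraries. The log2 fold change was -0.19 (SE 0.427), with a 95% interval of -1.20 to 0.83, and it turned to 0.62 without siControl replicate 2.

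Hsph1 encodes HSP110, a nucleotide exchange factor for HSP70, and lies on chromosome 5 at 149614287 to 149636376 on the minus strand. It measured 159.0 and 133.5 CPM with siControl and 135.1 and 80.4 CPM with siPwp1. The single lowest library was siPwp1 replicate 2, and in CPM siPwp1 replicate 1 lay between the siControl libraries. In TPM the groups did not overlap, at 48.64 and 44.04 with siControl and 42.53 and 26.27 with siPwp1. The log2 fold change was -0.44 (SE 0.318) and ranged from -0.86 without siPwp1 replicate 1 to -0.11 without siPwp1 replicate 2, with a 95% interval of -1.20 to 0.32 over all libraries.

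Bag3 and Hspb8 had the smallest p of the 10 genes. BAG3 is a co-chaperone that releases clients from HSP70 and binds the small heat shock protein HSPB8, and the complex of the 3 proteins directs damaged proteins to autophagy. Bag3 measured 58.2 and 35.5 CPM with siControl and 20.1 and 23.2 CPM with siPwp1. Both siPwp1 libraries were lower than either siControl library, and siControl replicate 1 was highest. The means were 46.9 ± 16 and 21.7 ± 2.2 CPM (SD, n = 2), 2.16-fold lower in siPwp1. The log2 fold change was -1.11 (SE 0.349; 95% interval -1.94 to -0.28), with an unadjusted p = 0.0157 and edgeR's adjusted p = 0.9998 over all genes. DESeq2 gave an adjusted p = 0.466. Leaving out siControl replicate 1 gave -0.71 and leaving out siControl replicate 2 gave -1.43.

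Hspb8 measured 25.9 and 11.9 CPM with siControl and 5.78 and 6.44 CPM with siPwp1. Here too both siPwp1 libraries were lowest, and siControl replicate 1 was 2.16-fold above siControl replicate 2. The means were 18.9 ± 9.84 and 6.11 ± 0.469 CPM (SD, n = 2), 3.09-fold lower in siPwp1. The log2 fold change was -1.63 (SE 0.476; 95% interval -2.76 to -0.50), with an unadjusted p = 0.0115 and edgeR's adjusted p = 0.9998, against an adjusted p = 0.228 with DESeq2. Without siControl replicate 2 edgeR called Hspb8 (log2 fold change -2.08, adjusted p = 0.0331), the only call among the 10 genes in any of the alternatives run. Without siControl replicate 1 its log2 fold change was -0.97. The ratio of Bag3 to Hspb8 in TPM moved less than either gene, from 1.5 and 1.98 in siControl to 2.32 and 2.4 in siPwp1, and was higher in both siPwp1 libraries.

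Hspb1 encodes HSP27 (HSP25 in the mouse), a small heat shock protein that holds unfolded proteins soluble and associates with actin filaments. It was the member that went the other way, with 26.9 and 38.8 CPM under siControl against 51.8 and 45.4 CPM under siPwp1. Both siPwp1 libraries were above both siControl libraries, with means of 32.9 ± 8.43 and 48.6 ± 4.52 CPM (SD, n = 2), or 1.48-fold higher. The log2 fold change was 0.56 (SE 0.310; 95% interval -0.17 to 1.3), with edgeR's adjusted p = 0.9998, and it was 0.32 or 0.85 when siControl replicate 1 or 2 was left out. The 2 small heat shock genes thus separated: the TPM ratio of Hspb1 to Hspb8 was 2.51 and 7.88 in siControl and 21.8 and 17.2 in siPwp1. Hspb1 lies on chromosome 5 at 135887919 to 135889563 (plus strand), Hspb8 on chromosome 5 at 116408491 to 116422864 (minus strand), and Bag3 on chromosome 7 at 128523616 to 128546981 (plus strand). Bag3 overlaps the annotated gene 2610306O10Rik on its own strand, and neither small heat shock gene overlaps another annotated gene.

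The stretches before the start sites of these 3 genes are shown because they differ in the letters of the heat shock element. The 150 bases of each are from RefSeq on GRCm38.p6, 5′ to 3′ on the gene's own strand, and capitals again mark GAANNTTC.
Hspb1, chr5:135887769-135887918: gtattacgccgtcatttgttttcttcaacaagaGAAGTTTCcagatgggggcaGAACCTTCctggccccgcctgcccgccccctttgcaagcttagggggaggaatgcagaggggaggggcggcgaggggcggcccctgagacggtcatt
Bag3, chr7:128523433-128523582: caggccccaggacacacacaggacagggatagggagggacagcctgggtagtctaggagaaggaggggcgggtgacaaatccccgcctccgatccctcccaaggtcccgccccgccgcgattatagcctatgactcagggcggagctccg
Hspb8, chr5:116422865-116423014: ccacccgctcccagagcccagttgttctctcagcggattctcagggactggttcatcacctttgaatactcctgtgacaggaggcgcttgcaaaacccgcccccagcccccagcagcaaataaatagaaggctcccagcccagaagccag
Promoter windows were on hand for 7 of the 10 genes (9 windows, since Hsph1 and Dnajb1 have more than 1 start), and none was used for Hsp90aa1, Hsp90ab1 or Hspa8. In the 250 bases before the start, GAANNTTC occurred in Hspb1 (at 117 and 97 bases before the start), Hspa1a and Hspa1b, and the other orientation, TTCNNGAA, in Hsph1 (33 bases before its upstream start). Both motifs read the same on either strand. Of all 32851 windows of that length, 6.69% held GAANNTTC, 7.17% held TTCNNGAA and 12.8% held at least 1 of them. These letters were not found in that window for Bag3, Hspb8 or Dnajb1. In the last 150 bases before the start, annotated exons of the gene itself lay in both Hsph1 windows and in 1 Dnajb1 window. The annotated Hsph1 gene begins at 149636376, upstream of the start at 149636336 used here, so its TTCNNGAA lies inside the gene. The CCAAT box, searched as CCAAT on both strands, occurred in Hspa1a, Hspa1b, Hsph1 and Dnajb1 and in 33.8% of all windows. The genes with GAANNTTC included the higher gene Hspb1 and the lower pair Hspa1a and Hspa1b. A link between these letters and the RNA levels was not tested. Less exact elements, and bases further from the start, were not searched.

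Differences between replicates were set beside those between groups. For 6 of the 10 genes the replicates of at least 1 group differed by more, in log2 CPM, than the fitted group difference. These were 4 genes in siControl and 6 in siPwp1. The same count was not made over all genes, so it gives no trait particular to these genes. Hsp90aa1 and Dnajb1 had the widest gaps in siControl, at -1.14 and 1.32 for replicate 2 minus replicate 1. Hspb8 and Bag3 differed by -1.11 and -0.71 between the siControl replicates and by 0.16 and 0.21 between the siPwp1 replicates, so their spread lay mostly in siControl. Replicate 2 minus replicate 1 had the same sign in both groups for 7 of the 10 genes, beside 66.7% of all genes tested.

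**Figure D3:**
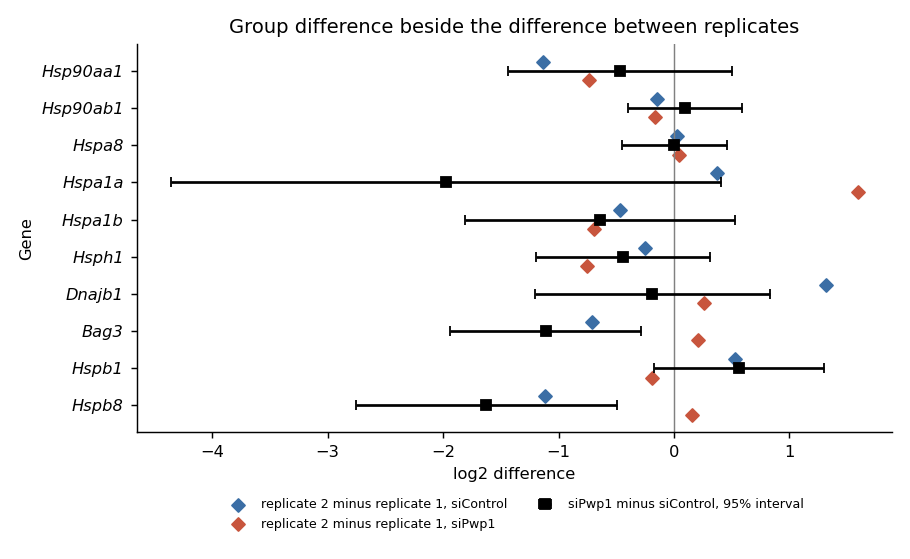
For each heat shock gene, the edgeR log2 fold change of siPwp1 minus siControl (black squares, bars for the 95% interval) beside the log2 CPM difference of replicate 2 minus replicate 1 within siControl (blue) and within siPwp1 (red). The intervals of Bag3 and Hspb8 lie wholly below 0, those of the other 8 genes hold 0, and the Hsp90aa1 replicate difference of -1.14 in siControl exceeds its group difference of -0.47.

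**Figure D4:**
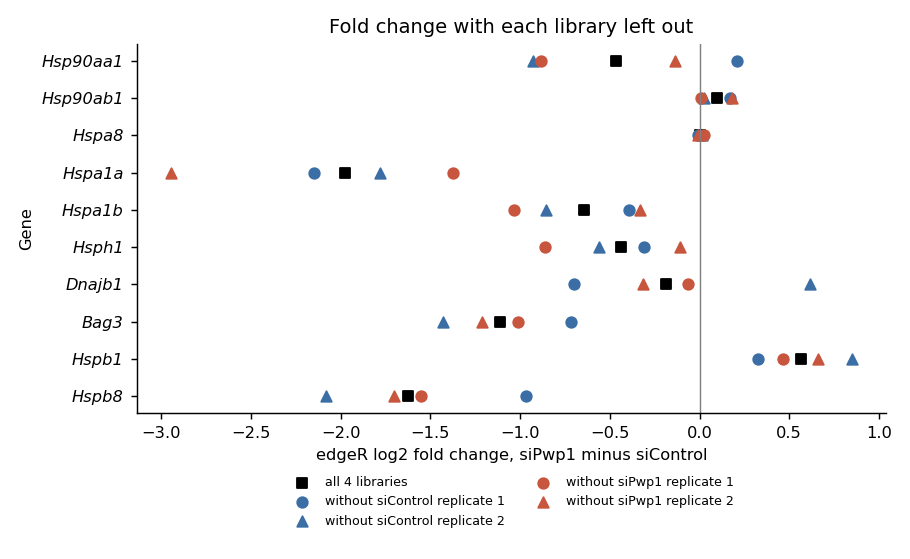
The edgeR log2 fold change of each heat shock gene (x axis) with all 4 libraries (black) and with each library left out in turn. Hspa1a, Hspa1b, Hsph1, Bag3 and Hspb8 stay below 0 in each case and Hspb1 and Hsp90ab1 above 0, whereas Hsp90aa1, Dnajb1 and Hspa8 fall on either side.

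In the rest of the chaperone network listed here, not all of it cytosolic, the differences lay on both sides of 0. Of 73 further genes in 6 lists, 64 were tested. edgeR called 0 of these, with 0 at an unadjusted p under 0.05, and DESeq2 called 0. Groups did not overlap for 11 lower genes (17.2%) and 7 higher genes (10.9%), beside 14.1% and 14.7% of all genes, and the median log2 fold change was 0.016. Of the HSP90 co-chaperones 5 of 18 (27.8%) were lower without overlap, and of the J-domain genes 3 of 14 (21.4%). These lists had the most tested genes. In each, as many genes were fitted higher as lower, 9 and 9 among the co-chaperones and 7 and 7 among the J-domain genes.

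The heat shock factors themselves were present at low levels. Hsf1, the main activator of the heat shock genes, measured 13.95 and 25.6 CPM with siControl and 15.6 and 10.8 CPM with siPwp1, with overlap of the groups (log2 fold change -0.58, SE 0.432). Hsf2, a related factor active in development and gametes, measured 31.5 and 32.8 CPM with siControl and 23.5 and 28.9 CPM with siPwp1, lower in both siPwp1 libraries (log2 fold change -0.30, SE 0.302). Hsbp1, whose protein binds and restrains heat shock factor 1, measured 335.3 and 243.7 CPM with siControl and 387 and 269 CPM with siPwp1. Hsf5 was at 0.435 to 1.26 CPM across the libraries. Of the 7 tested genes in this list, 1 was lower without overlap and 0 higher.

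Among 18 HSP90 co-chaperones, 5 were lower and 2 higher without overlap of the groups, with a median log2 fold change of -0.0062. Cdc37l1, which encodes a relative of CDC37, measured 27.7 and 33.1 CPM with siControl and 22.9 and 20.7 CPM with siPwp1 (log2 fold change -0.48). Ptges3, which encodes p23, the co-chaperone of the closed HSP90 state, measured 1700 and 1516 CPM against 1241 and 1457 CPM (log2 fold change -0.25). Cdc37, which brings kinases to HSP90, went the other way, with 85.1 and 80.97 CPM under siControl against 103.5 and 93.5 CPM under siPwp1. Tomm34, whose protein binds HSP70 and HSP90, measured 24.3 and 43.8 CPM against 24.7 and 27.7 CPM, with overlap.

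Among 13 tested genes for other HSP70 proteins and their exchange factors, 2 were lower and 2 higher without overlap. The BAG genes beside Bag3, which like it encode HSP70-binding BAG domains, lay on both sides of the control level. Bag4 measured 37.4 and 26.7 CPM with siControl and 17.6 and 24.01 CPM with siPwp1 (log2 fold change -0.62), while Bag2 measured 1.6 and 0.319 CPM against 1.82 and 2.76 CPM (log2 fold change 1.27). Bag5 measured 28.6 and 46.3 CPM against 42.8 and 53.9 CPM, with overlap. St13, which encodes the HSP70-interacting protein Hip, measured 165.9 and 159.8 CPM against 130.9 and 136.4 CPM (log2 fold change -0.28).

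Among 14 J-domain genes other than Dnajb1, 3 were lower and 2 higher without overlap. Dnaja1, a J-domain partner of HSC70, measured 5800 and 6423 CPM with siControl and 4591 and 5701 CPM with siPwp1 (log2 fold change -0.25). Dnajb6, which keeps aggregation-prone proteins soluble, measured 1420 and 1523 CPM against 1726 and 1904 CPM (log2 fold change 0.30). Dnajc2, a ribosome-associated J-domain protein, measured 295.8 and 266.7 CPM against 236 and 212.6 CPM (log2 fold change -0.33). Dnajb14, which encodes a J-domain protein of the endoplasmic reticulum membrane, measured 10.6 and 74.8 CPM with siControl and 47.3 and 154.5 CPM with siPwp1, with replicate 2 higher in both groups (log2 fold change 1.24, adjusted p = 0.9998). edgeR called it without siControl replicate 2 (adjusted p = 0.00183) and without siPwp1 replicate 1 (adjusted p = 0.0138), and its log2 fold change was 0.15 without siPwp1 replicate 2 and 0.43 without siControl replicate 1.

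None of the 5 tested small heat shock genes outside the family's 2 members separated the groups. Hspb11 stood at 6.71 to 14.02 CPM, Hspb6 at 1.33 to 4.58 CPM, Hspb2 at 0.478 to 2.91 CPM and Odf1 at 0 to 0.902 CPM. Cryab, a small heat shock protein of lens and muscle named after its values were seen, measured 83.98 and 20.3 CPM with siControl and 93.3 and 8.73 CPM with siPwp1, so the replicates differed far more than the groups. edgeR called it lower when siPwp1 replicate 1 was left out (log2 fold change -2.58, adjusted p = 0.00668), whereas its log2 fold change was -0.03 over all libraries and 1.33 without siControl replicate 1. In each group replicate 1 was the higher library for Cryab, Krt18 and Hsp90aa1, and the lower library for Dnajb14 and Tead4. In the mixed list of stress ubiquitin and aggregate handling, 1 of 7 genes, Hdac6, was higher without overlap, at 8.09 and 8.65 CPM and at 11.1 and 10.7 CPM. Ubb, a polyubiquitin gene, measured 1402 and 1688 CPM against 1454 and 1410 CPM. Vcp was at 159.4 to 237.9 CPM and Sqstm1, which encodes the autophagy receptor p62, at 63.7 to 156.6 CPM, both with overlap.

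**Figure D5:**
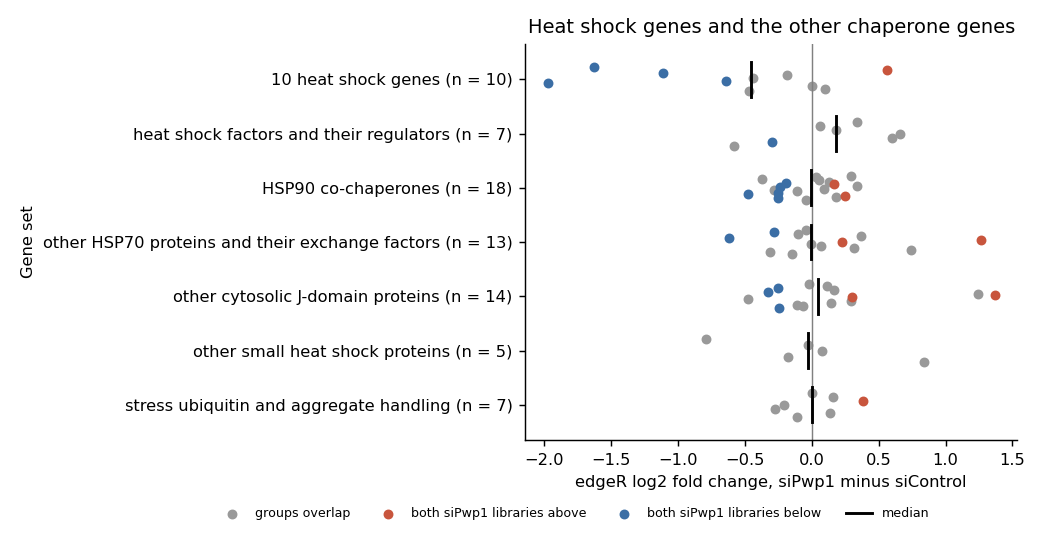
edgeR log2 fold changes (x axis) of the 10 heat shock genes and of the tested genes of 6 further chaperone lists, with blue for genes lower in both siPwp1 libraries, red for genes higher in both, grey for overlap and a black line for each list's median. The 10 genes have a median of -0.45, and the medians of the other lists lie between -0.03 and 0.18.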

How the data were processed

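Per the file headers, the authors' tables hold unscaled expected counts from RSEM, 1 table a library. The deposited TPM in the same tables are scaled by effective length and library. FPKM were not used. The submitters' processing notes name STAR 2.7.10, RSEM 1.3.3 and mm10; trimming, annotation release and strandedness were not given in the sources used here.

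Expected counts were rounded and tested with edgeR 4.0.16 (quasi-likelihood, TMM, filterByExpr with minimum count 10, group as single term) in R 4.3.3, with Benjamini-Hochberg adjustment over all 13585 genes and a threshold of 0.05, two-sided. DESeq2 1.42.0 and limma 3.58.1 served as alternatives. CPM are TMM-scaled; levels between genes are compared in TPM. The SE was taken as the size of the log2 fold change divided by the root of F, and 95% intervals use edgeR's total degrees of freedom. The smallest p that an exact permutation of 2 against 2 libraries allows is 0.333. Floors cover counting error only. The tests were tried on simulated data. Positions are from GENCODE M21 on GRCm38, the assembly of mm10.

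Members, lists and tests were chosen with earlier results of these data known. Named genes were the 10 members, Pwp1, Hsf1, Hsf2 and up to 4 genes of smallest unadjusted p in each list.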

Additional observations from a re-analysis of the deposited data

How the results depend on the processing

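The alternatives run were leaving out the low-count filter, a filter of 5 CPM in 2 libraries, DESeq2 size factors, DESeq2's Wald test, the replicate number as a block, limma on log2(TPM + 1) and on log2(TPM + 0.1), each library left out in turn, and Hspa1a and Hspa1b merged, the last chosen after seeing the data. The heat shock genes called numbered 0 to 1 with a library left out (Hspb8, without siControl replicate 2) and 0 in the others. Those higher without overlap numbered 2, not 1, with the 5 CPM filter, with either TPM scale and with each library left out (2 each time). On the TPM scales the added gene was Hsp90ab1. Those lower without overlap numbered 3, not 4, with the 5 CPM filter, which Hspa1a did not pass, 3 with the pair merged, and 5 to 6 with a library left out. Their median log2 fold change ran from -0.87 to -0.23 with a library left out. Of 116 single values for the 10 genes, 110 kept their direction and side of the threshold, 1 passed it (Hspb8) and 5 changed sign. With a library left out, Hsp90aa1 ran from -0.93 to 0.21, Dnajb1 from -0.70 to 0.62 and Hspa8 from -0.0112 to 0.0228; Hspa8 was -0.0103 with no filter; the cause was not tested. Hspa1a did not pass the TPM filter either, but Hsph1 was lower without overlap in TPM, so the lower genes still numbered 4 there. Among the 64 further chaperone genes, edgeR called 1, Dnajb14, with no filter (adjusted p = 0.0453) and 1 with the replicate block (adjusted p = 0.0191), and 0 to 2 with a library left out. Their genes without overlap numbered 15 to 22 lower and 17 to 26 higher with a library left out, where fewer libraries must be separated.

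Same-numbered replicates share only a number. The log2 difference of replicate 2 minus replicate 1 correlated at 0.317 between the groups across 13585 genes, which are not independent. With the replicate block, edgeR called 0 of the 10 heat shock genes, 1 of the further chaperone genes and 80 of all genes, against 0 of each without it. Over all genes, edgeR called 106 with no filter and 6 to 142 with a library left out. edgeR's prior degrees of freedom were 4.84 with all libraries and 9.8, 23.7, infinite and infinite without siControl replicates 1 and 2 and siPwp1 replicates 1 and 2. Fits with a library left out assume that a lone library varies like the other group, and their calls do not compare like with like. With 2 libraries per group, the 95% intervals of the 10 genes were at least 0.9 wide on the log2 scale.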
